A study of Gallus gallus with 2 samples.

Results

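Heat shock proteins and chaperonins were examined in hearts of chicken embryos (Gallus gallus) under oxidative stress. The set was chosen by gene name, with a fixed pattern that takes the heat shock protein families (HSPA, HSPB, HSPD, HSPE, HSPH and HSP90), the heat shock factors, the CCT chaperonin with TCP1, the prefoldins, the BAG and FKBP families, CRYAB and SERPINH1. It found 50 of the 13011 gene names, with 92 of the 27335 assembled transcripts. HSF2BP, a partner of heat shock factor 2 and no chaperone, was taken by the pattern too and was kept. CCT3, CCT4, PFDN5, PFDN6, HSF1, HSF3, HSF4, HSPA2, HSPB6 and HSPB9 had no value under these names and were not analysed here.

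RNA-seq was made from total RNA of whole hearts at day 11 (Hamburger-Hamilton stage 37), with 1 library per group. The control library came from embryos given saline. The AAPH library came from embryos given 2,2-azobis(2-amidinopropane) dihydrochloride, a compound that decomposes to free radicals, at 2.6 µmol in 100 µL through the air chamber of the egg, first at stage 35 and then on alternate days up to day 10. Hearts came from the embryos that survived, and the labels give no breed, no sex and no number of hearts per library. Since a group is 1 library, replicate error cannot be given, and the values below describe 2 libraries without any test.

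Heat shock proteins bind proteins that are unfolded or newly made and keep them from aggregating. Small heat shock proteins hold them without ATP. HSP70 and HSP90 fold them in ATP-driven cycles, HSP110 proteins and BAG proteins exchange the nucleotide on HSP70, and the barrel-shaped chaperonins (CCT in the cytosol, HSPD1 with its lid HSPE1 in mitochondria) enclose them. Heat shock factors are the transcription factors that raise many of these genes under proteotoxic stress, and oxidised proteins are among the known triggers. In striated muscle, small heat shock proteins are known for their association with sarcomeres and CCT for folding actin.

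The heat shock and chaperonin genes held a similar, small part of each library. They summed to 8385 FPKM (sequenced fragments relative to transcript length and depth) in the control and 7792 under AAPH, which is 0.672% and 0.747% of the summed FPKM. The median gene stood at 62.3 FPKM in the control and 62.2 under AAPH, and 20 of the 50 genes were at 100 FPKM or more in each. HSPB1, a small heat shock protein that protects actin filaments, was the most abundant member, in place 75 of all names in the control and 72 under AAPH. FKBP12, the receptor of the drug FK506 that also binds the ryanodine receptor, and HSPE1 followed in both libraries. At the other end stood HSF5, at 0.0546 and 0.115 FPKM, the 1 member under the minimum mean of 1 FPKM. It was left out of the counts below.

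**Figure D1:**
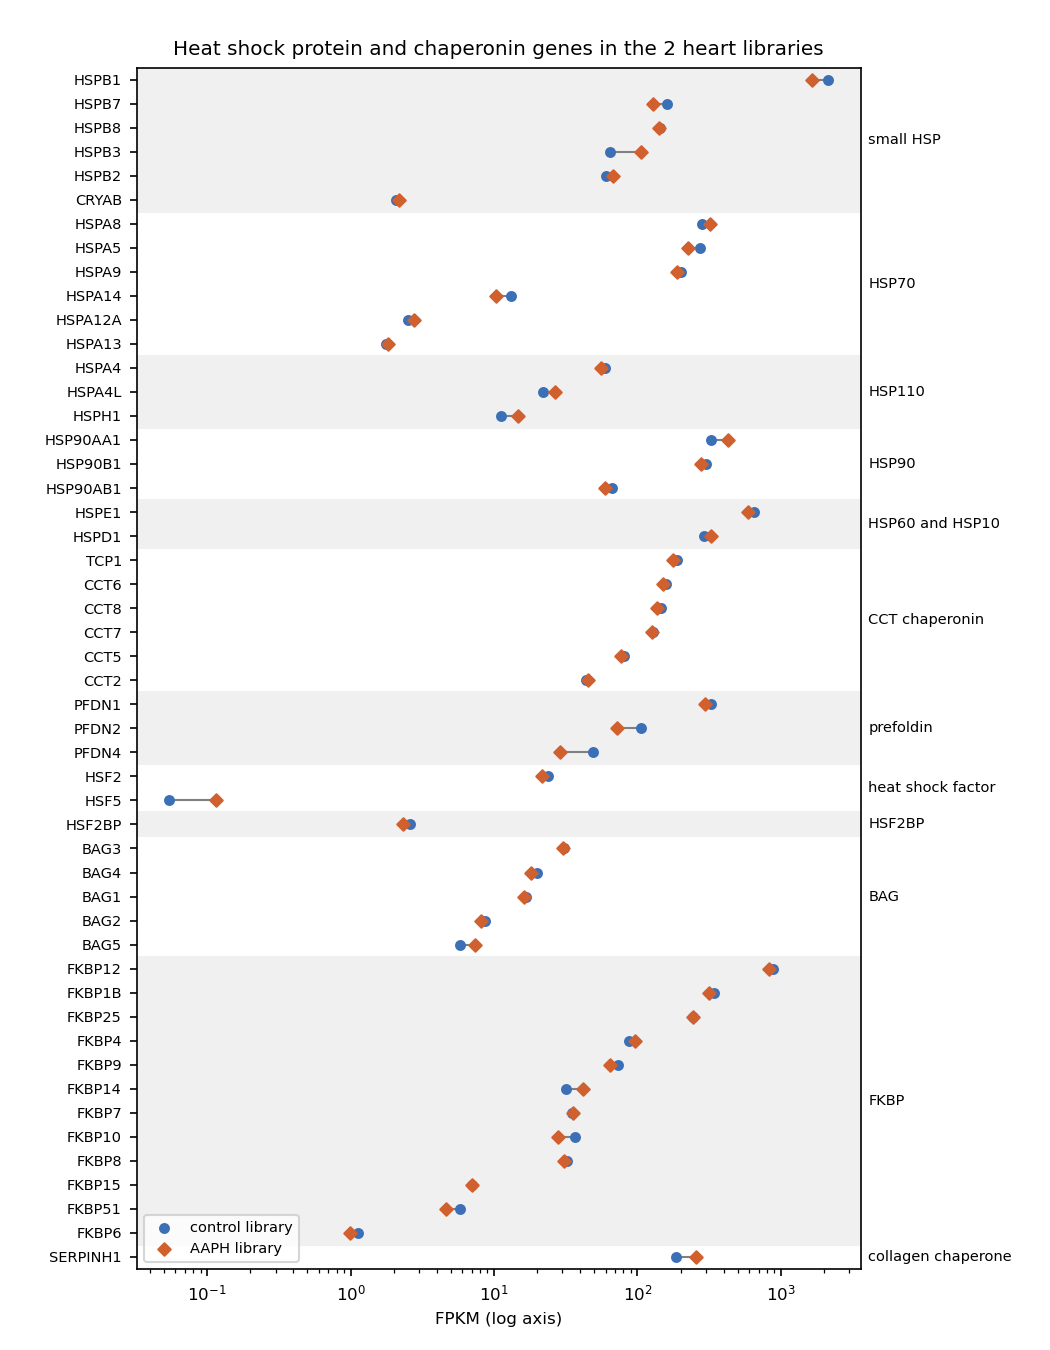
FPKM (log axis) of the 50 heat shock protein and chaperonin genes, ordered by family and then by mean, in the control library (circles) and the AAPH library (diamonds); each point is 1 library, with no error. The pairs of points lie close together for most genes, HSPB1 is the highest in both libraries at 2137 and 1656, and HSF5 is the lowest.

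Most of the 49 compared genes had close values in the 2 libraries, and few passed 1.5-fold either way. Ratios are given as log2((AAPH + 1)/(control + 1)) of the FPKM values, a scale that understates the change of low genes, and 1.5-fold (0.58 on this scale) was used to count genes as higher or lower. HSPB3 was the 1 gene higher in the AAPH library and PFDN4 the 1 gene lower, and 47 lay between. Over all 10106 names with a mean of 1 FPKM or more, 2.73% were higher and 3.93% lower, so these counts are near the background. Ratios lay above 0 for 17 of the 49 genes, against 50.5% of all names, and the median was −0.07 against 0.004. At 2-fold no member was counted either way, against 0.356% of all names higher and 0.782% lower.

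These directions depend on how the libraries are scaled. The summed FPKM was 1248089 in the control and 1042407 under AAPH. Rescaling each library to the same total (TPM) moved the median log2 ratio of all names up by 0.23, and rescaling without haemoglobin and mitochondrial-genome transcripts moved it by 0.21. Under both, 41 of the 49 members had ratios above 0 (79.2% and 77.2% of all names did), 5 were higher at 1.5-fold (8.4% and 8.53% of all names) and 0 lower (1.6% and 1.83%). The 5 were HSPB3, SERPINH1, HSP90AA1, FKBP14 and HSPH1. The member median then stood at 0.19 against 0.23 for all names in TPM, and at 0.16 against 0.22 under the other rescaling, so it remained below that of all names under each scaling.

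Ratios also went down with abundance over all names, and the member medians did so less steadily. At a mean of 1 to 3 FPKM the median log2 ratio was 0.06 over all names and 0.03 over 5 members. At 3 to 10 FPKM it was 0.06 and −0.04 over 4 members, and at 10 to 30 FPKM −0.004 and −0.09 over 6 members. In these ranges the member medians lay below those of all names, and from 30 FPKM up they lay above them. At a mean of 30 to 100 FPKM the median log2 ratio was −0.07 over all names and −0.06 over 15 members. At 100 to 300 FPKM it was −0.12 over all names and −0.08 over 11 members, and at 300 to 1000 FPKM −0.21 and −0.10 over 7 members. Of the 49 members, 28 lay above the median of all names in their own abundance range.

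Among the small heat shock proteins, HSPB3 was higher in the AAPH library and the more abundant HSPB1 and HSPB7 had ratios below 0. HSPB3, a muscle protein that forms a complex with HSPB2, was at 64.3 FPKM in the control and 106 under AAPH, a log2 ratio of 0.71. Both of its transcripts had ratios above 0, at 17.1 and 23.0 FPKM for the first and 47.3 and 82.6 for the second. Its partner HSPB2 was at 60.2 and 67.1 FPKM (0.15). The HSPB3 ratio kept its call under both rescalings, at 0.96 and 0.94.

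HSPB3 is the 1 member that the RefSeq gene table (assembly GRCg7b) places on chromosome Z, the sex chromosome carried as a pair by male birds and singly by females. Over 402 compared names on Z the median log2 ratio was 0.31 and 15.2% were higher at 1.5-fold, against −0.0005 and 1.83% over 8402 names on numbered chromosomes. The sex of the embryos is not given in the labels, and its part in the HSPB3 ratio was not tested.

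HSPB1 was at 2137 FPKM in the control and 1656 under AAPH, a log2 ratio of −0.37, which is close to the median of −0.45 of the 122 names at 1000 FPKM or more. HSPB7, a small heat shock protein of heart muscle, was at 161 and 128 FPKM (−0.33). Under both rescalings these ratios were smaller in size and still below 0, at −0.11 and −0.13 for HSPB1 and at −0.07 and −0.09 for HSPB7. HSPB8, which works with BAG3 in the selective autophagy of damaged muscle proteins, was at 143 and 141 FPKM (−0.02, and 0.24 in TPM).

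CRYAB, alpha-B crystallin, known as an abundant protein of the adult mammalian heart, was at 2.06 and 2.17 FPKM, well below its neighbour in the RefSeq gene order, HSPB2. The CRYAB ratio of 1.05 is that of equal fragment numbers, because the same number of fragments gave 1.05 times the FPKM under AAPH. The smallest fragment numbers that give this ratio are 1 in each library, and larger equal numbers give it too. For 1 and 1 the exact binomial 95% interval is 0.0134 to 82.5, which covers counting error only and narrows with larger numbers. It is the widest case and not an estimate. FKBP6, at a lower 1.12 FPKM in the control, has a smallest number of 13 there if its ratio rests on whole numbers. The true numbers for CRYAB are unknown, so how firm its level and ratio are cannot be told. The 6 small heat shock proteins had a median log2 ratio of 0.01 (3 above 0, CRYAB among them), and 0.23 in TPM. Summed FPKM of the family was 2567 in the control and 2099 under AAPH, a sum carried by HSPB1.

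Of the 6 HSP70 genes, the 3 abundant ones lay on both sides of 0 as deposited. HSPA8, the constitutive cytosolic HSP70 (HSC70), was at 282 and 322 FPKM (0.19). HSPA5 (BiP), the HSP70 of the endoplasmic reticulum and a classical target of the unfolded protein response, was at 274 and 226 FPKM (−0.27, and −0.01 in TPM). HSPA9, mortalin of the mitochondrial matrix, was at 202.7 and 188 FPKM (−0.11, and 0.15 in TPM). The libraries thus held nearly equal HSPA8 and HSPA5 levels in the control, with a ratio of 1.03, and more HSPA8 than HSPA5 under AAPH, with a ratio of 1.42. This ratio within a library does not depend on its scaling.

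The other HSP70 genes were low. HSPA14, a ribosome-associated HSP70, was at 13.2 and 10.4 FPKM (−0.32, and −0.08 in TPM). HSPA12A, a distant HSP70 relative, was at 2.51 and 2.79 FPKM, and HSPA13, an HSP70 of the endoplasmic reticulum, at 1.76 and 1.82. Over the 6 genes 3 ratios lay above 0, and the median was −0.04 as deposited and 0.17 in TPM.

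A gene named hsp70 in lower case fell outside the name pattern. The RefSeq table gives HSP70 as a synonym of HSPA2, the gene of heat-inducible HSP70 in chicken. It was at 80.5 FPKM in the control and 82.2 under AAPH, a log2 ratio of 0.03 and 0.29 in TPM, so that it too lay within 1.5-fold.

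The HSP110 family, nucleotide exchange factors for HSP70, had ratios above 0 for its heat-inducible members. HSPH1 (HSP105) was at 11.2 FPKM in the control and 14.7 under AAPH, a log2 ratio of 0.36, and passed 1.5-fold under both rescalings (0.60 and 0.59). HSPA4L was at 22.0 and 26.4 FPKM (0.26). The constitutive HSPA4 was the most abundant of the 3, at 59.8 and 55.7 FPKM (−0.10, and 0.15 in TPM).

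Among the HSP90 genes that the name pattern takes, HSP90AA1, the stress-inducible cytosolic form, had a ratio above 0. The others had ratios below 0 as deposited. TRAP1, the HSP90 of mitochondria, whose name the pattern does not take, was at 89.4 FPKM in the control and 96.9 under AAPH (0.11, and 0.37 in TPM). HSP90AA1 was at 324 FPKM in the control and 426 under AAPH, a log2 ratio of 0.39, and passed 1.5-fold under both rescalings (0.65 and 0.63). The constitutive cytosolic form HSP90AB1 was at 66.7 and 59.5 FPKM (−0.16, and 0.09 in TPM), and HSP90B1 (GRP94), the form of the endoplasmic reticulum, was at 303 and 277 FPKM (−0.13, and 0.13 in TPM). The ratio of HSP90AA1 to HSP90AB1 was 4.86 in the control and 7.16 under AAPH. The cytosolic HSP90 forms, like HSPA8 and hsp70, are paralogs that can share reads, so their split is uncertain.

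The HSP90AA1 difference rested on 1 assembled transcript. Its main transcript was at 324 FPKM in the control and 341 under AAPH, a log2 ratio of 0.07. The other transcript was listed at 0 in the control and at 84.9 FPKM under AAPH, 19.9% of the gene there. HSP90AB1 had the largest shift of all members. Its first transcript was at 0.0165 FPKM in the control and 44.5 under AAPH, while its second was at 66.7 and 14.996, so the share of the first went from 0.0247% to 74.8% with little change in the sum. The files hold no confidence intervals for the division of fragments between transcripts of a locus.

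Transcript shares moved in other genes too. Of 30 compared members with several transcripts, 2 had a transcript whose share moved by 20 percentage points or more, HSP90AB1 and HSF2BP, against 36.4% of 6743 names. Among names with a mean of 30 FPKM or more it was 1 of 20 members against 15.3% of 1347 names, and the median largest shift was 5.37 points for these members and 6.54 for all names. The threshold of 20 points was chosen after the values were seen, and HSP90AA1, FKBP15, FKBP8, FKBP9 and FKBP4 lay between 18.1 and 19.9 points. At 10 points the count was 12 of the 30 members against 61% of all names with several transcripts, and at 30 points it was 2 against 21.7%. In 3 members, HSP90AB1, HSF2BP and FKBP15, another transcript was the highest under AAPH, against 21.9% of all names with several transcripts.

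Transcripts moved in opposite ways in many members whose gene sums lay within 1.5-fold, and 4 of these genes are described here. FKBP4 (FKBP52), an HSP90 co-chaperone of steroid receptors, was at 87.4 and 96.5 FPKM in sum, with its minor transcript at 8.31 and 26.6 and its major one at 79.1 and 69.8. FKBP9 had a minor transcript at 20.7 and 6.15 FPKM and a major one at 52.4 and 58.6. In FKBP8 the first transcript was at 0.00349 and 5.92 FPKM and the second at 3.59 and 0.00218. HSF2BP, a gene known from meiotic recombination, had 1.47 and 0 FPKM in 1 transcript and 1.11 and 2.32 in the other. BAG3 divided its FPKM steadily, with 59.9% and 58.6% in its main transcript, as did SERPINH1 with 93.0% in both libraries.

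**Figure D2:**
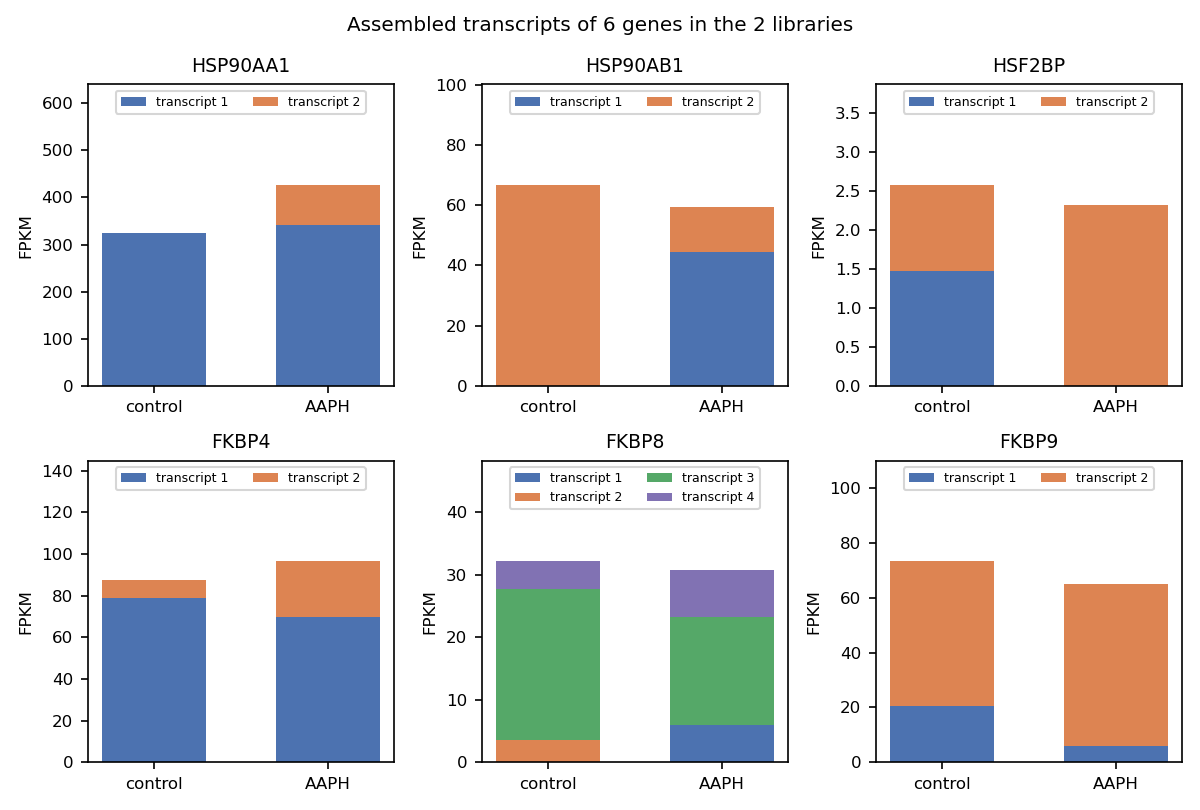
FPKM of the assembled transcripts of 6 genes, stacked in 1 bar per library, without error bars since each bar is 1 library; transcripts are numbered by their order in the authors' tables and each panel has its own axis from 0. HSP90AA1 has a second transcript that is listed at 0 in the control library, and in HSP90AB1 the first transcript is 74.8% of the AAPH bar and 0.0247% of the control bar.

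The chaperonin transcripts were nearly the same in the 2 libraries. The cytosolic chaperonin CCT (also TRiC) is a double ring of 8 different subunits, of which 6 have values here. Their log2 ratios ran from −0.10 for CCT8 to 0.04 for CCT2, and all 6 lay between the quartiles of all names (−0.19 and 0.18). The median was −0.07 as deposited and 0.19 in TPM, where all 6 were above 0. TCP1 (the alpha subunit) was at 188 and 178 FPKM, CCT6 (zeta) at 158 and 150.2, and CCT8 (theta) at 146 and 137. CCT7 (eta) was at 129 and 127 FPKM, CCT5 (epsilon) at 80.3 and 76.6 and CCT2 (beta) at 43.8 and 45.1. The order of the 6 subunits was the same in both libraries, and the highest, TCP1, stood 4.30 times above the lowest, CCT2, in the control library and 3.95 times under AAPH.

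The mitochondrial chaperonin pair was close as well. HSPD1 (HSP60), the barrel, was at 292 FPKM in the control and 325 under AAPH, a log2 ratio of 0.15. HSPE1 (HSP10), the lid, was at 653 and 591 FPKM (−0.14, and 0.12 in TPM). They are neighbours on chromosome 7 in the RefSeq table. The ratio of HSPE1 to HSPD1 was 2.24 in the control and 1.82 under AAPH.

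The prefoldins were the family farthest below 0. Prefoldin is a complex that passes unfolded actin and tubulin to CCT. PFDN4 was at 48.7 FPKM in the control and 28.8 under AAPH, a log2 ratio of −0.74, and was the 1 member counted as lower. PFDN2 was at 106 and 71.6 FPKM (−0.57), just inside 1.5-fold. PFDN1, the most abundant, was at 328 and 296 FPKM (−0.15).

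The prefoldin median of −0.57 remained below 0 in TPM (−0.31) and under the other rescaling (−0.33), while the PFDN4 call was lost under both (−0.48 and −0.51) and PFDN1 lay above 0 there (0.11 in TPM). VBP1, the prefoldin 3 subunit, whose name the pattern does not take, was at 57.4 and 48.7 FPKM (−0.23, and 0.02 in TPM). In PFDN4 and PFDN2 1 transcript held 98.0% or more of the FPKM in each library, so these ratios did not turn on the division between transcripts.

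The 1 heat shock factor compared, HSF2, and most BAG genes had ratios near 0. HSF1, HSF3 and HSF4 had no value and HSF5 was under the minimum, so nothing can be said of them. HSF2, a factor active in development, was at 23.8 FPKM in the control and 21.7 under AAPH (−0.12, and 0.13 in TPM). BAG3, a heat-inducible co-chaperone of the Z-disc, was at 30.6 and 30.4 FPKM (−0.01), BAG4 at 19.9 and 18.03 (−0.14) and BAG1 at 16.8 and 16.2 (−0.05). BAG2, an inhibitor of the ubiquitin ligase CHIP, was at 8.73 and 8.16 FPKM (−0.09). BAG5 was the BAG gene with the highest ratio, at 5.83 and 7.38 FPKM (0.29, and 0.51 in TPM). The median of the 5 was −0.05, and 0.20 in TPM, where all 5 lay above 0.

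The FKBP family of prolyl isomerases had a median log2 ratio of −0.07 in 12 genes (4 above 0), and 0.18 in TPM (10 above 0). FKBP12 was at 887 and 826 FPKM and FKBP1B (FKBP12.6), the form bound to the cardiac ryanodine receptor, at 344 and 317. FKBP25, a nuclear form, was at 246 and 243. These 3 abundant genes differed little, with log2 ratios of −0.10, −0.11 and −0.01. FKBP51, an HSP90 co-chaperone induced by glucocorticoids, was at 5.79 and 4.65 FPKM (−0.27, and −0.05 in TPM), against 0.14 for its counterpart FKBP4. FKBP8, an anchor of BCL2 at mitochondria, was at 32.1 and 30.8, and FKBP15 at 7.03 and 7.07. FKBP6 was at 1.12 and 0.998 FPKM. Its ratio of 0.889 can come from fragment numbers as small as 11 under AAPH and 13 in the control, with an exact binomial 95% interval of 0.361 to 2.15 that covers counting error only, so no difference was detectable there if it rests on these numbers.

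Chaperones of collagen in the endoplasmic reticulum lay on both sides of 0. SERPINH1 (HSP47), which binds procollagen, was at 187 FPKM in the control and 255 under AAPH, a log2 ratio of 0.45 (0.71 and 0.69 rescaled), with both transcripts at nearly the same ratio (1.38 and 1.36). FKBP14, an isomerase that acts on type III collagen, was at 31.9 and 41.9 FPKM (0.38, and 0.63 and 0.61 rescaled). FKBP10 (FKBP65), a partner of HSP47 in collagen folding, was on the other side, at 36.6 and 28.2 FPKM (−0.37, and −0.11 in TPM). FKBP9 was at 73.2 and 64.8 FPKM (−0.17, and 0.08 in TPM) and FKBP7 at 35.2 and 35.4 (0.01). Fibroblast and epicardium markers, cells that make collagen, summed to 1200.3 FPKM in the control and 1147 under AAPH over 10 of 11 markers, 5 of them with ratios above 0 and a median of 0.01. Among them, the collagen gene COL1A2 was at 420 and 331 FPKM (−0.34, and −0.08 in TPM). COL3A1 was at 274 and 233 (−0.23, and 0.03 in TPM). The 5 markers above 0 were LUM (0.32), POSTN (0.22), DCN (0.22), PDGFRA (0.21) and PDGFRB (0.07). TCF21 (−0.24) and TBX18 (−0.05) were below 0. WT1 (−0.62) was the 1 marker of the set past 1.5-fold, against 3.93% of all names lower, and this call was lost in TPM (−0.38). The direction of the marker sum turned in TPM, where the sum under AAPH was 1.14 times that of the control. In TPM 8 of the 10 marker ratios lay above 0 and their median was 0.24, against 79.2% and 0.23 over all names. As deposited 50.5% of all names lay above 0. In whole hearts, more cells of a type and more RNA per cell cannot be told apart.

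**Figure D3:**
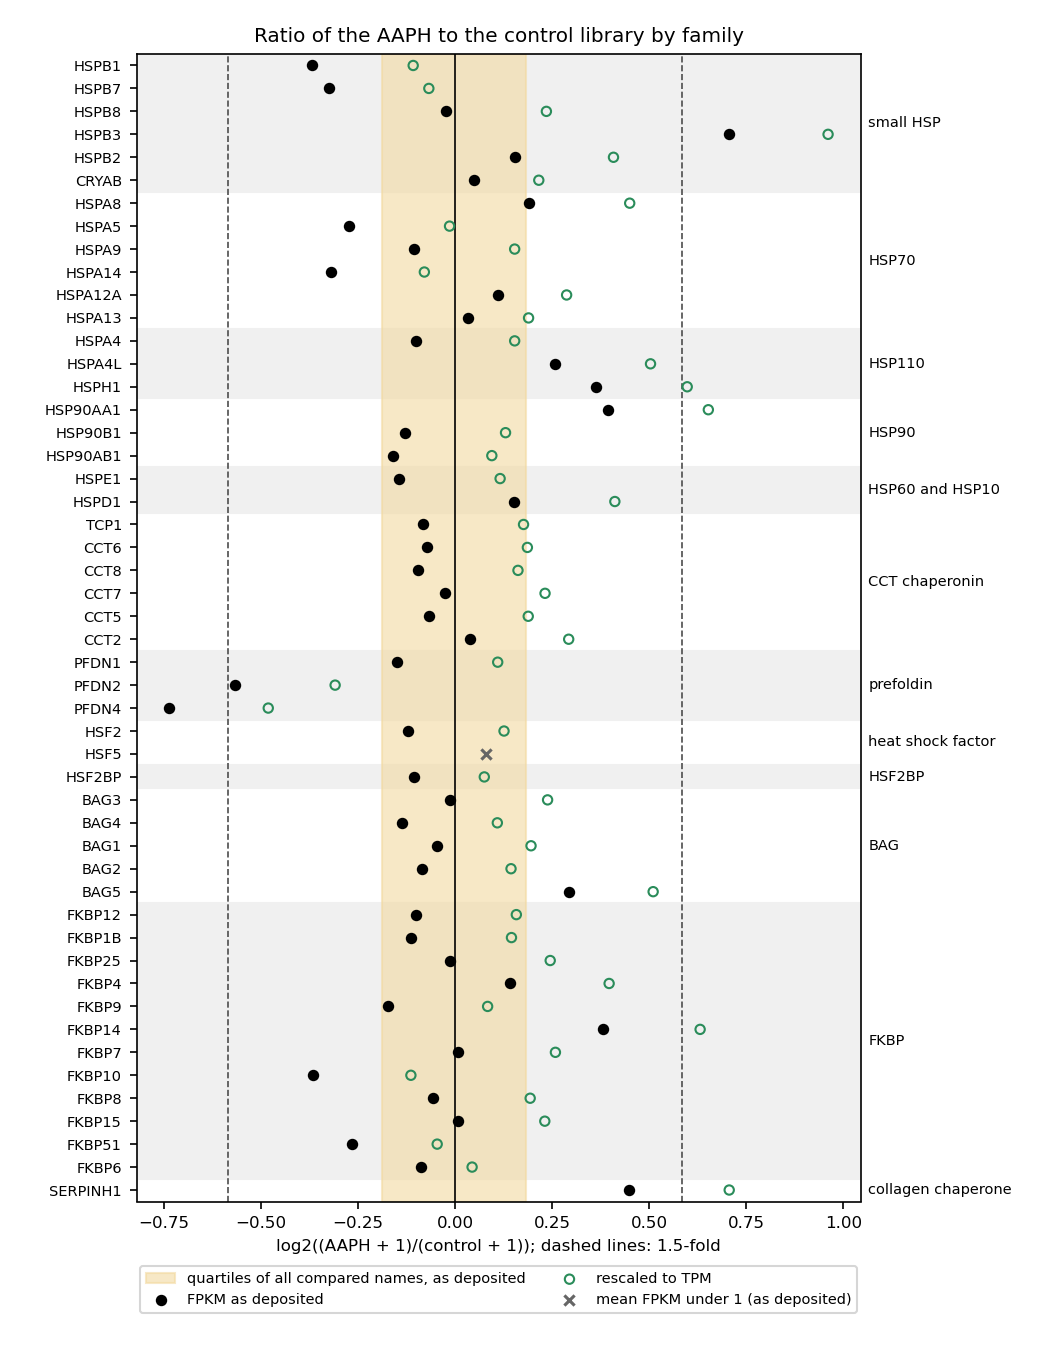
The log2 ratio of the AAPH to the control library for each gene, by family: filled points are FPKM as deposited, open points are rescaled to TPM, the cross is HSF5 (mean under 1 FPKM), the band spans the quartiles of all compared names as deposited and dashed lines mark 1.5-fold. The CCT genes lie together within the band, PFDN4 and PFDN2 lie farthest to the left, and HSPB3, SERPINH1, HSP90AA1, FKBP14 and HSPH1 pass the right line after rescaling.

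By compartment, the medians were alike. The 37 genes of the cytosol and nucleus had a median log2 ratio of −0.07 (12 above 0), the 8 of the endoplasmic reticulum −0.06 (4 above 0) and the 4 of mitochondria −0.08 (1 above 0). In TPM the medians were 0.19, 0.16 and 0.17. The genes of the endoplasmic reticulum spread most evenly to both sides, from −0.37 for FKBP10 to 0.45 for SERPINH1, and its general chaperones HSPA5 and HSP90B1 were below 0 as deposited.

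The members were also grouped by their known response to heat. The heat-inducible gene hsp70 (log2 ratio 0.03) lies outside the name pattern and was not counted in this grouping. Of 9 compared members known to be induced by heat, 6 had ratios above 0, namely SERPINH1, HSP90AA1, HSPH1, HSPA4L, HSPD1 and CRYAB. CRYAB was at 0.05, the ratio of equal fragment numbers, and BAG3, HSPE1 and HSPB1 were below 0. Over all names 50.5% of ratios lay above 0, and the median of the 9 was 0.15, or 0.20 without CRYAB. With the highest transcript of each name in place of the sum it was 0.07, the ratio of the main HSP90AA1 transcript. Of 14 constitutive members, mainly CCT and prefoldin subunits, 2 had ratios above 0 (HSPA8 and CCT2) with a median of −0.10. In TPM the medians were 0.41 and 0.16, against 0.23 for all names, and 8 of the 9 and 11 of the 14 ratios lay above 0, against 79.2% of all names. None of the 9 was higher at 1.5-fold as deposited, against 2.73% of all names, and 3 were after both rescalings, against 8.4% and 8.53%. The lists were written with some of these ratios known, subunits of a complex are not independent, and the difference between the lists was not tested.

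**Figure D4:**
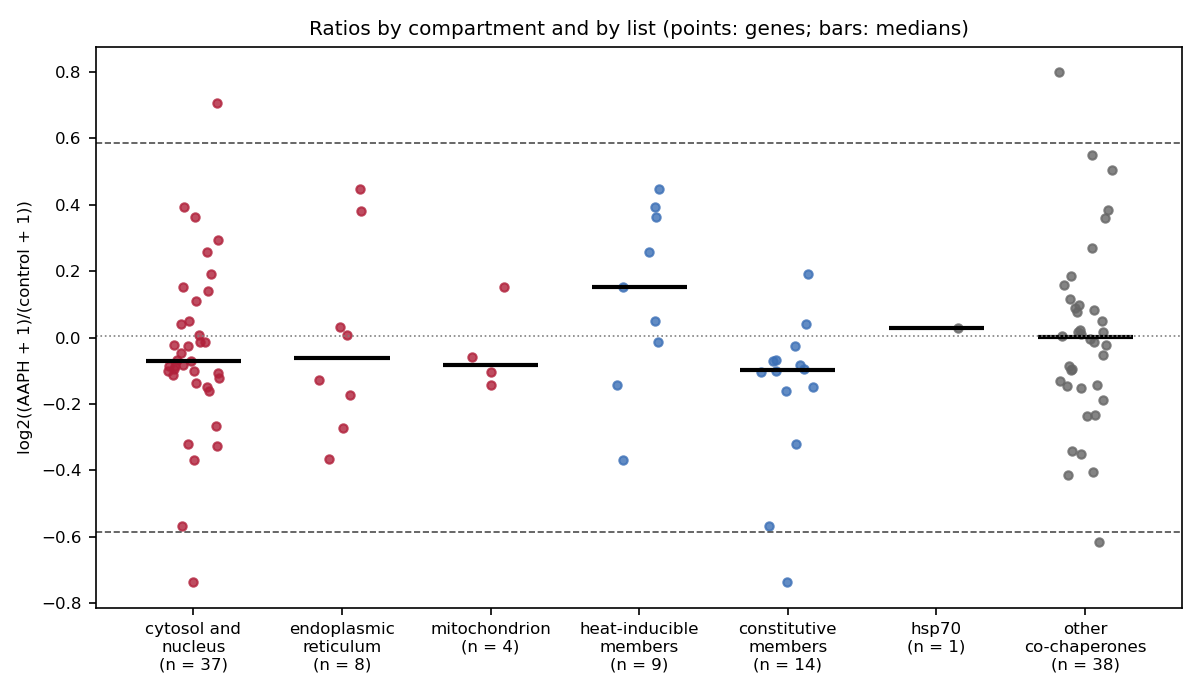
The log2 ratio of the AAPH to the control library as deposited, with 1 point per gene and bars at the medians, for the members by compartment (red), for the heat-inducible and the constitutive members (blue), and for hsp70 and the other co-chaperones (grey); the dotted line is the median of all compared names and dashed lines mark 1.5-fold. Of the 9 heat-inducible members 6 lie above 0, among them CRYAB at 0.05, the ratio of equal fragment numbers. Of the constitutive members 2 of 14 lie above 0.

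Co-chaperones and related genes outside the name pattern were spread evenly about 0. A list, mainly of HSP70, HSP90, CCT and tubulin-folding partners, held 51 genes. It also took in genes that are not co-chaperones, such as the chaperones TRAP1 and HYOU1 and the import receptor TOMM70A. The whole list is called the other co-chaperones here, and 39 of its genes had a value. STIP1, CDC37, PTGES3 and DNAJB1 were among those without one. Of 38 compared genes, 19 had ratios above 0, against 50.5% of all names. In the list 1 stood above 1.5-fold and 1 below, against 2.73% and 3.93% of all names. The median was 0.001 (0.24 in TPM), against 0.004 (0.23 in TPM) for all names. PDCL, a phosducin-like protein that works with CCT in assembling G protein beta subunits, was at 7.57 and 13.9 FPKM (0.80). TBCA, a beta-tubulin folding cofactor, was at 24.9 and 36.9 FPKM (0.55) and lies on Z. UNC45B, the chaperone of muscle myosin, was at 125 and 81.4 FPKM (−0.62), a call lost in TPM (−0.36). PDRG1, a prefoldin-like protein, was at 31.5 and 23.4 FPKM (−0.41).

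Some sets of cell type markers differed between the libraries and others were close. Erythroid markers had values for 5 of 11 genes, all of them haemoglobin genes, and 4 of the 5 were lower at 1.5-fold. Their sums were 3427 FPKM in the control and 2275 under AAPH. Neural markers had values for 7 of 8 genes, with 4 lower at 1.5-fold and sums of 173 and 127. Over all names 3.93% were lower. Under both rescalings 4 erythroid and 2 neural markers were lower at 1.5-fold, against 1.6% and 1.83% of all names. No ratio of either set lay above 0 in TPM. Cardiomyocyte markers had values for 10 of 13 genes and summed to 47615 and 42059 FPKM, with 1 lower and 9 within 1.5-fold. Their median log2 ratio was −0.20 with 2 of 10 above 0, and it turned to 0.06 with 8 of 10 above 0 in TPM. Over all names the medians were 0.004 and 0.23, with 50.5% and 79.2% above 0. Endothelial markers summed to 177 and 178 FPKM, smooth muscle markers to 79.95 and 76.2 and macrophage markers to 9.44 and 11.2, with no marker of these sets past 1.5-fold as deposited. Of liver markers 1 of 4, APOA1, passed the minimum and was lower, at 156 and 71.98 FPKM. ALB (0.279 and 0.158), FGB (0.762 and 0.668) and TTR (0.225 and 0.709) were under 1 FPKM in both libraries. The liver set thus rests on APOA1 alone and does not give the liver content of either library. The 3 thyroid and parathyroid markers summed to 1.82 and 26.5. No marker with a value was at 0 in either library. The part of tissue make-up in the chaperone ratios was not tested.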

How the data were processed

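The submitters' processing notes name bcl2fastq, TopHat2 (2.1.1), Cuffdiff and Cufflinks (2.2.1) for the 2 libraries. A genome build or annotation is not given in the sources used here. FPKM were deposited by the authors, 1 per assembled transcript, per the file headers. Cufflinks divides fragments between transcripts of a locus by estimation, and close paralogs can share reads.

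Transcript FPKM were added up within each of 13011 gene names, and 1968 transcripts without a name (18.2% and 20.6% of FPKM) were left out. Genes with a mean of 1 FPKM or more were compared with a pseudocount of 1 and counted at 1.5-fold. Families, compartments and lists were written by hand; list symbols were matched exactly, then by letter case, then by RefSeq synonym. CCT6, FKBP12, FKBP25 and FKBP51 were added to the family table once these names were seen. The members and lists were chosen with earlier results of these data known. Named were members past 1.5-fold, the most abundant and the extreme members of each family, every subunit of a complex, and the 2 extreme co-chaperones each way; other names were chosen after their values were seen.

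Absolute depth is unknown. Relative depth came from 781 single-transcript names of low FPKM: 94.6% had ratios of whole numbers up to 15, within a relative 0.0002, with 1.05 as the factor between equal fragment numbers (with other factors a median of 0.384%). Chromosomes came from names in RefSeq (GRCg7b). The counting step was run on simulated data with planted changes larger than 1.5-fold and an assumed depth. That run cannot show how firm the 1.5-fold counts are. The tools were matplotlib 3.10.9, scipy 1.17.1, pandas 2.3.3, numpy 2.4.6 and Python 3.11.15.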

Additional observations from a re-analysis of the deposited data

How the results depend on the processing

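A pseudocount of 0.1, no filter on low values, a minimum mean of 5 FPKM and centring by the median of ratios left the counts of 1 higher and 1 lower member as they were and moved the median of the members and of each compartment by less than 0.1 (log2). Rescaled to TPM and rescaled without haemoglobin and mitochondrial-genome transcripts, 5 members were higher and 0 lower, and 41 had ratios above 0. The median of the members was then 0.19 and 0.16, that of the cytosol and nucleus 0.19 and 0.16, of the endoplasmic reticulum 0.16 and 0.15, of mitochondria 0.17 and 0.15 and of the other co-chaperones 0.24 and 0.23. With the highest transcript of each name in place of the sum, 3 members were higher (FKBP14 and HSF2BP joined HSPB3) and 2 lower (HSP90AB1, at −2.08, joined PFDN4), and the mitochondrial median was 0.063. The shares of all names under this setting were not computed, so these 2 counts have no background to be set against. At 2-fold 0 members were higher and 0 lower, and at a ratio of 5 to 4 the counts were 5 and 5, against 11.6% and 14% of all names. The alternatives for the heat-inducible and constitutive lists and for the transcript shares were added after the data were seen. No paired analysis was possible because each group has 1 library, and leaving out a library was not possible for the same reason. Depth, replicate spread and the precision of each FPKM are unknown.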

Other observations

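Ratios between members of 1 library do not depend on its scaling. HSPB1 stood 33.2 times above HSPB3 in the control library and 15.7 times in the AAPH library. PFDN1 stood 6.73 and 10.3 times above PFDN4. The pairs were picked once the values were known, and none of the differences was tested.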
